A study of Mus musculus with 2 samples.

Results

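The interferon gamma axis was followed through 10 genes, of the 32285 genes counted, in single cells of the mouse colon recovering from chemical colitis. The genes were listed by name for their place in the pathway: the inducing cytokine subunit Il12b, the cytokine gene Ifng and the transcription factor gene Tbx21, the receptor genes Ifngr1 and Ifngr2, the chemokine genes Cxcl9 and Cxcl10, the GTPase genes Iigp1 and Gbp2b, and the chemokine receptor gene Cxcr3. All 10 had counts in both libraries. They were chosen with earlier results of these data known. Each was described across the 10 coarse and 15 finer clusters that the authors deposited for their cells, and between the libraries of both genotypes.

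Interferon gamma is made by natural killer cells, innate lymphoid cells and T cells, whose capacity to make it depends on the transcription factor T-bet (Tbx21). Interleukin 12, whose p40 subunit is the product of Il12b, is released by dendritic cells and macrophages and acts on these lymphocytes. The receptor pairs a ligand-binding chain (Ifngr1) with a signalling chain (Ifngr2), and acts on GAS elements and, through IRF1, on ISRE elements of target genes. Among the targets are the chemokines CXCL9 and CXCL10, which draw in lymphocytes bearing CXCR3, and the interferon-inducible GTPases of the IRG family (Iigp1) and the GBP family (Gbp2b), which act against intracellular microbes.

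Both groups were C57BL/6 mice aged 8 weeks that drank 2.0% dextran sulphate sodium (DSS), which injures the colonic epithelium, for 7 days, then plain water for 7 days, and were killed on day 14. One library came from wild type mice and the other from mice labelled E4BP4 transgenic, which the study describes as overexpressing E4BP4 (gene Nfil3) in macrophages only. The promoter that drives the transgene and the number of mice behind each library are not given in the sources used here. Live CD45+ cells of the lamina propria were sorted and sequenced with 10x Genomics 5' chemistry, which counts transcripts by unique molecular identifiers (UMIs) near their 5' end. With 1 library per genotype no test between genotypes exists: genotype, library and mice cannot be told apart, and the 95% intervals given here are exact ones for counting error alone. Levels are UMIs of the gene per 1000000 UMIs of the summed cells (CPM), ratios are the transgenic library over the wild type library, and values for the 2 libraries are given in the order wild type, transgenic.

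The count tables held 69346746 and 58884332 UMIs in 9855 and 10143 barcodes, of which the authors' deposited metadata named 6466 and 7026 cells, with medians of 2700 and 2427.5 UMIs. The barcodes outside the metadata carried 70.4% and 66.1% of all UMIs. They were mainly immunoglobulin-rich barcodes (1218 and 1160) and barcodes of more than 2200 genes (1718 and 1290). Nfil3 stood at 84.4 and 73.8 CPM in the macrophage-like cells, a ratio of 0.874 (0.724 to 1.06), so the counts did not show the overexpression that the label names, and the second library is called the library labelled transgenic. Whether the 5' tags would cover the transgene is not known. Of the barcode sequences, 142 occurred in both libraries, 67 of them among the metadata cells of both, and leaving them out moved 1 of the 35 ratios followed through the alternatives, that of Cxcl10 in cluster 2.

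The cells that matter for this axis fell in a few clusters. Coarse cluster 1 (664 and 1106 cells) was macrophage-like, with 13 of 14 macrophage markers raised, and coarse cluster 3 (814 and 437 cells) was monocyte-like. Coarse cluster 8 (132 and 282 cells) was dendritic-like. Coarse clusters 2 (489 and 1065 cells) and 4 (455 and 741 cells) held lymphocytes of more than 1 type and were given no name: cluster 4 was led by Gzma, Il17a and Xcl1 and carried markers of T cells, gamma-delta T cells and natural killer cells, and cluster 2 was led by Lef1, Calca, Dapl1 and Csf2. Coarse cluster 0 was B cell-like and its shares are given for comparison. Whether its counts come from the B cells themselves was not tested.

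The start regions of the genes differ in their matches to fixed letters of response elements. They are shown for the chemokine pair, for 1 GTPase gene and for the cytokine gene because the results turn on these. They are RefSeq sequences of the GRCm38.p6 build, the build named mm10 in the submitters' processing notes, running from 250 bases before to 50 after the start of the gene. A promoter was found for 9 of the 10 genes, and Iigp1 is named only. The regions lie at chr5:92328030-92328329 on the minus strand for Cxcl9, at chr5:92348840-92349139 on the minus strand for Cxcl10, at chr3:142594597-142594896 on the plus strand for Gbp2b and at chr10:118440796-118441095 on the plus strand for Ifng. Capitals mark a match to an ISRE (GAAA, any 2 bases, GAAA) or a GAS (TTCNNNGAA) on either strand.
Cxcl9: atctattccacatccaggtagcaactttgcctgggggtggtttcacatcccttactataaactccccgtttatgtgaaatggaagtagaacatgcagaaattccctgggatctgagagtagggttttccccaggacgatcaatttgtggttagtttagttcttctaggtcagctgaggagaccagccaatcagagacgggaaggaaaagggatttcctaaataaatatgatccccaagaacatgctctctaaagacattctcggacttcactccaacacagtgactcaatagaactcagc
Cxcl10: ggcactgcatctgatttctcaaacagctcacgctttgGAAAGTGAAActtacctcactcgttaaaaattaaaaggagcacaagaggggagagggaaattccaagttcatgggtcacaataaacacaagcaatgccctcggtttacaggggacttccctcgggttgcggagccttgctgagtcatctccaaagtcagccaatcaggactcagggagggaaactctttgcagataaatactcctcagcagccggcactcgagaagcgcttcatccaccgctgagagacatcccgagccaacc
Gbp2b: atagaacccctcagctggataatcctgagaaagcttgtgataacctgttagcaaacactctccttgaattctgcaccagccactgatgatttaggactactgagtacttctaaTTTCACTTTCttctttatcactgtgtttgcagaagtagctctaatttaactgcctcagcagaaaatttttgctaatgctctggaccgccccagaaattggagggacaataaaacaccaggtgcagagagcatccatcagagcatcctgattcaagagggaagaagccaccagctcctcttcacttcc
Ifng: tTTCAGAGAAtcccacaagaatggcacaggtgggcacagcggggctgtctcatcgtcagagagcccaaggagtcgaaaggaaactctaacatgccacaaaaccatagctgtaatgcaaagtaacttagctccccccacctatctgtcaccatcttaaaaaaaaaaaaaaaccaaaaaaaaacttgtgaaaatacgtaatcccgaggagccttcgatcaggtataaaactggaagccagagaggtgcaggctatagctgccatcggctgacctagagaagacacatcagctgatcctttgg

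The Cxcl10 region held an ISRE that begins 213 bases before the start, the Gbp2b region held one on the opposite strand 137 bases before it, and the Ifng region held a GAS 249 bases before it. The Cxcl9 region held neither set of letters, nor did the regions of Tbx21, Il12b, Ifngr1, Ifngr2 and Cxcr3, which are not shown. Of the 9 member promoters, 1 thus held a GAS (11.1%) and 2 an ISRE (22.2%). Of the 32851 mouse promoters of this length, 8.30% held the GAS letters, 3.44% the ISRE letters and 1.06% the D-box letters TTATGTAA or TTACGTAA, to which E4BP4 is known to bind. Of the 25 promoters found for a list of 37 interferon gamma target genes, 11 held a GAS (44.0%), 11 an ISRE (44.0%) and 0 a D-box. A match is a match of letters in these windows and no measure of binding. A region without a match, such as that of Cxcl9, may still hold a response element of other letters.

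**Figure D1:**
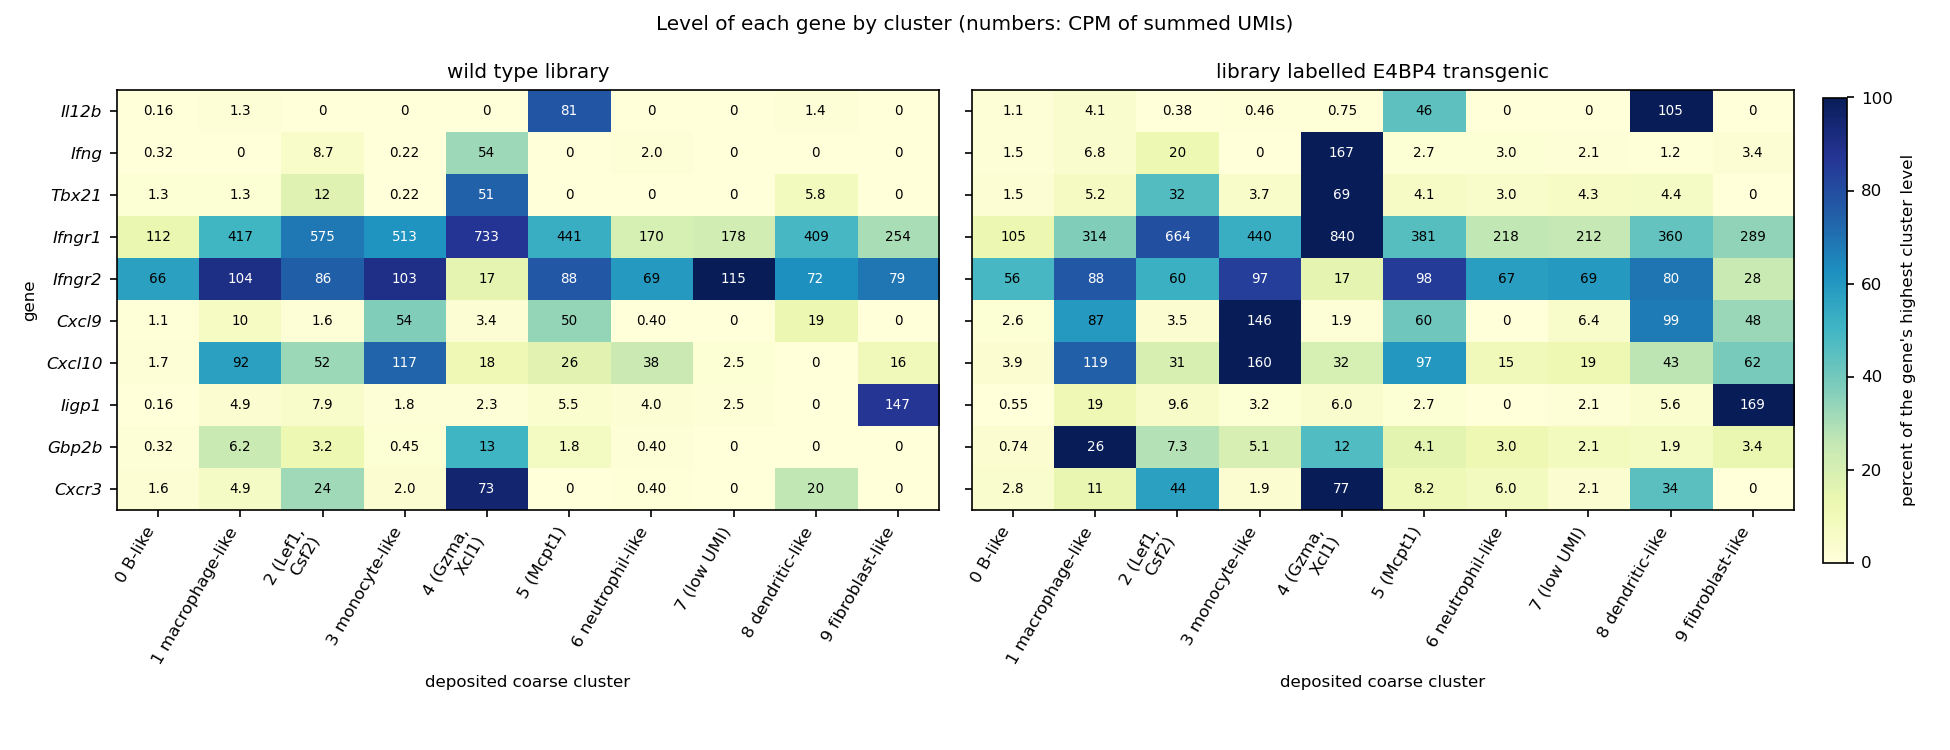
Level of the 10 genes (rows) in the 10 coarse clusters (columns) in CPM, for the wild type library and the library labelled transgenic. Each field prints the CPM and is shaded by its percent of the gene's highest cluster level; Ifng stands highest in cluster 4 of both libraries (53.5 and 167 CPM), whereas Ifngr1 is at 105 CPM or more in every cluster.

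Il12b, which encodes the subunit shared by interleukins 12 and 23, was found in very few cells. The metadata cells held 49 and 227 Il12b UMIs in 8 and 33 cells. The highest cell alone carried 31 of the 49 in the wild type library, and the highest 2 cells carried 80 and 68 of the 227 in the library labelled transgenic. All 3 carried Ccr7, the receptor gene of dendritic cells that move to lymph nodes: the wild type cell held 28 Ccr7 UMIs, and the others held 67 and 51. The coarse clusters split these cells. In the dendritic-like cluster 8 the level was 1.45 CPM from 1 UMI and 105 CPM from 168 UMIs, a ratio of 72.8 (12.9 to 2892). In the low-UMI cluster 5, which is led by mast cell protease genes and holds the highest wild type cell, it was 80.9 and 46.2 CPM (ratio 0.572, 0.354 to 0.915). Finer cluster 9, dendritic-like, brought both sets together, at 58.4 and 108 CPM from 45 and 198 UMIs, a ratio of 1.85 (1.33 to 2.61). The mast cell protease genes Mcpt1, Mcpt2 and Cma2 were also among the leading genes of finer cluster 9.

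The Il12b ratio of cluster 8 moved with a pair of cells and with the barcodes counted. Without the 1 highest cell of each library it was 12.6 with 3 UMIs in place of the 0, from 0 and 88 UMIs. With the barcodes of many genes that lie nearest to this cluster it was 1.33 (1.12 to 1.59), with 193 and 418 UMIs. All left-out barcodes of many genes together held 84.2% and 50% of the Il12b UMIs of the libraries. Within finer cluster 9, Ccr7 was found in 4 of 5 and 8 of 15 cells with Il12b (80.0% and 53.3%), against 26.9% and 19.7% of the other cells, at median depths of 2006 and 5668 UMIs against 4283 and 4904. Xcr1, a marker of cross-presenting dendritic cells, was found in 0 of 5 and 9 of 15 such cells (a count of 0 of 5 allows up to 60%), against 7.02% and 12.7% of the others. Among the partners of Il12b, the interleukin 12 subunit gene Il12a was at 59 and 1 UMIs in the monocyte-like cells, a ratio of 0.0352 (0.000877 to 0.204), and finer cluster 11 held 55 and 0 Il12a UMIs.

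Ifng was concentrated in the lymphocytes of cluster 4. They held 94 of 113 and 445 of 538 Ifng UMIs of the metadata cells (83.2% and 82.7%). The level in cluster 4 was 53.5 CPM (43.2 to 65.4) and 167 CPM (152 to 183), which gave a ratio of 3.12 (interval 2.49 to 3.94). Counts were found in 32 of 455 cells (7.03%) and 69 of 741 (9.31%), or 3.41% and 4.64% after thinning each cell to 1000 UMIs, which left out 4 and 3 cells. The corresponding share of B cell-like cells was 0.0830% and 0.313%, at median depths of 2445 and 2235 UMIs against 3740 and 3503. Cluster 2 came next, with 8.68 CPM (4.33 to 15.5) and 20.3 CPM (15.2 to 26.6), and every other coarse cluster was at 6.78 CPM or less.

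A single cell held much of the Ifng of 1 library. It held 269 of the 445 UMIs in cluster 4 of the library labelled transgenic, 50% of all Ifng UMIs of its metadata cells and 3.73% of its own 7221 UMIs. It had 6 UMIs of Ncr1, which encodes the natural killer cell receptor NKp46, 0 of Cd3e, 302 of Xcl1, 489 of Ccl4 and 42 of Csf2. The highest wild type cell held 25 Ifng UMIs, with 5 of Ncr1 and 104 of Gzma. Without the highest cell of each library the ratio in cluster 4 was 1.68 (1.26 to 2.25), from 69 and 176 UMIs. Within finer cluster 4, led by Xcl1, Gzma and Cd7, the ratio was 2.37 (1.85 to 3.08), and within finer cluster 8, led by Il17a and Trdv4, it was 1.71 (1.04 to 2.89). Finer cluster 4 contains the highest cell of both libraries.

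The source of Ifng can be described by the natural killer and CD3 genes of each cell. Among cells of cluster 4 with a natural killer gene and no CD3 gene, 6 of 16 (37.5%) and 12 of 27 (44.4%) held Ifng. Among cells with a CD3 gene and no natural killer gene the shares were 17 of 383 (4.44%) and 40 of 608 (6.58%). Cells with both kinds of gene lay between, at 9 of 51 (17.6%) and 15 of 98 (15.3%). In both libraries the natural killer-type cells thus had the highest share, and the CD3-only cells had the largest number of cells with the gene. By UMIs, the natural killer-type cells held 33 of 94 and 294 of 445, and 8 and 25 without the highest cell. Ifng was found in 3.57% and 6.78% of cells with any gamma-delta T cell gene and in 11.3% and 14.2% of cells with none. By UMIs the cells with a gamma-delta gene held 30 of 94 and 346 of 445, and in the library labelled transgenic the highest cell was among them, without which they held 77 UMIs against 99 in the cells with none.

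Cells with Ifng also carried genes of cytotoxic lymphocytes in a larger share than the other cells of cluster 4, at similar median depths (3512 against 3749 UMIs, and 3245 against 3533.5). Ncr1 was found in 28.1% and 24.6% of them against 1.89% and 3.72% of the others. Prf1, which encodes perforin, was found in 25% and 33.3% against 5.44% and 6.55%. Ccl4, a chemokine of activated lymphocytes and macrophages, was found in 65.6% and 60.9% against 17.5% and 29.5%. The opposite held for Il17a, the cytokine gene of type 17 cells, in 3.12% and 0% against 14.7% and 9.38%. Ifngr2 was found in 0 of 32 and 0 of 69 cells with Ifng, against 6.86% and 5.95% of the others, whereas Ifngr1 was found in 84.4% and 84.1%. With 32 and 69 cells, a count of 0 allows a share of up to 9.38% and 4.35%, so in the wild type library a difference from the 6.86% of the others was not detectable.

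Ifng UMIs also appeared in macrophage-like cells of 1 library. There were 0 UMIs in 664 wild type cells, which allows a share of up to 0.452% of cells with a UMI. The library labelled transgenic had 25 UMIs in 15 of 1106 cells, 5.09-fold higher where 3 UMIs stand in for the 0. All 15 held the myeloid gene Lyz2 and 9 held Cd3e. T and natural killer cell genes also differed between the macrophage-like cells of the libraries as a whole: 14.2% and 31.5% of the cells held at least 2 UMIs of the 22 T and natural killer markers. The summed level of the 12 T cell markers was 272 and 602 CPM and that of the 10 natural killer and ILC1 markers 44.4 and 284 CPM, with Ncr1, Klra8 and Eomes at 0 in the wild type library and Klra8 at 0 in the other. Their part in the Ifng counts was not tested.

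Tbx21 was found in the same lymphoid clusters. In cluster 4 it stood at 51.2 CPM (41.2 to 62.9) and 69.0 CPM (59.4 to 79.7). It was found there in 69 of 455 (15.2%) and 147 of 741 (19.8%) cells, against 0.290% and 0.358% of B cell-like cells. Thinned to 1000 UMIs the shares in cluster 4 were 4.76% and 6.67%. The ratio was 1.35 (1.04 to 1.75). In cluster 2 the levels were 11.8 and 31.9 CPM (ratio 2.69, 1.54 to 5.02). The makeup of cluster 2 differed between the libraries, since finer cluster 4 gave 7.16% and 21.3% of its cells. Inside finer cluster 4 Tbx21 stood at 86.2 and 82.3 CPM (ratio 0.955, 0.745 to 1.23), on the other side of 1 from cluster 2. Tbx21 was in 40.6% and 29.0% of cells with Ifng in cluster 4 and in 13.2% and 18.9% of those without.

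The receptor genes were ordered differently across the clusters. Ifngr1 was highest in cluster 4, at 733 CPM (693 to 774) and 840 CPM (806 to 876), and lowest in the B cell-like cells, at 112 CPM (104 to 121) and 105 CPM (96.5 to 114). Ifngr2 was lowest in cluster 4, at 17.1 CPM (11.5 to 24.4) and 17.2 CPM (12.6 to 23.0). In the macrophage-like cells Ifngr2 stood at 104 and 88.4 CPM and in the monocyte-like cells at 103 and 97.0 CPM, 2 clusters whose intervals overlap in each library. Cluster 4 thus held the highest Ifng and the lowest Ifngr2 level of the coarse clusters in both libraries, although in the second the Ifngr2 interval of cluster 9 (11.9 to 54.3) overlapped its own. Across 28 points, 14 finer clusters in each of 2 libraries, the Pearson correlation of log CPM with Tbx21 was 0.86 for Ifng and -0.71 for Ifngr2. The points of a library share its depth, so these are descriptions.

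Between libraries the receptor genes stayed within 1.5-fold in most clusters. Ifngr1 in macrophage-like cells had 939 and 1156 UMIs, 417 and 314 CPM (ratio 0.752, 0.689 to 0.820), and with the barcodes of many genes nearest to this cluster the ratio was 0.867 (0.819 to 0.918). In monocyte-like cells it had 513 and 440 CPM (ratio 0.858, 0.794 to 0.925). In cluster 4 the ratio was 1.15 (1.07 to 1.23). Ifngr2 ran from 0.692 in cluster 2 to 1.11 in cluster 5 among the clusters with at least 48 UMIs in each library. Neither receptor gene reached a 1.5-fold difference in clusters 0 to 6 and 8. Ifngr2 had a ratio of 0.347 (0.132 to 0.822), at 79.4 and 27.6 CPM in the small fibroblast-like cluster 9, from 20 and 8 UMIs, and one of 0.596 (0.367 to 0.957), at 115 and 68.6 CPM, in the low-UMI cluster 7. Within finer cluster 3, monocyte-like, Ifngr1 stood at 666 and 473 CPM (ratio 0.711, 0.657 to 0.769).

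**Figure D2:**
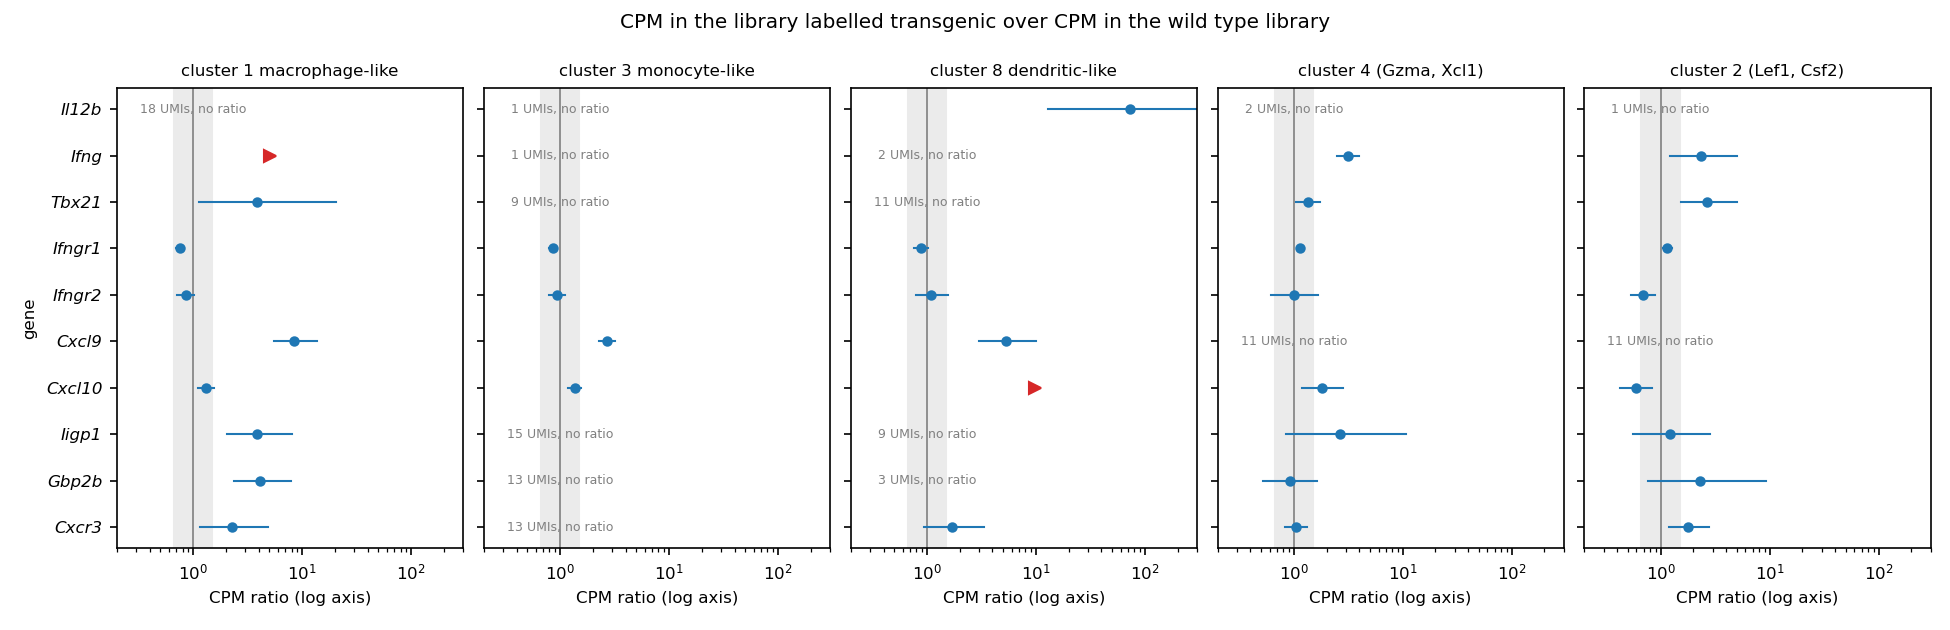
Ratio of CPM, library labelled transgenic over wild type, on a log axis for each gene in coarse clusters 1, 3, 8, 4 and 2. Points are ratios with exact 95% intervals for counting error, and red triangles are approximate lower bounds where the wild type library had 0 UMIs. The grey band is within 1.5-fold, genes under 20 UMIs have no point, and the Il12b interval in cluster 8 runs past the axis to 2892; the Ifngr1 ratios lie between 0.752 and 1.15.

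Cxcl9 stood highest in the monocyte-like cells of both libraries, next to cluster 5 in the wild type library, whose interval overlapped. There it stood at 54.2 CPM (47.6 to 61.5) and 146 CPM (130 to 162), from 244 UMIs in 20 cells and 315 UMIs in 33 cells, a ratio of 2.68 (2.26 to 3.18). The share of monocyte-like cells with Cxcl9 was 2.46% and 7.55%, or 1.59% and 4.07% thinned to 1000 UMIs with 1 and 0 cells left out. B cell-like cells gave 0.290% and 0.626%, at median depths of 2445 and 2235 against 5715.5 and 5054 UMIs. A single wild type cell held 84 of the 244 UMIs, and without the highest cell of each library the ratio was 3.25 (2.65 to 3.99). The finer clusters that hold most of these cells showed the same direction. Finer cluster 3 was at 56.6 and 132 CPM. Finer cluster 11, led by Arg1, Nos2 and Saa3, was at 53.0 and 293 CPM from 5 and 9 cells with the gene. Few cells carried the counts of finer cluster 11. Single wild type cells held 34 and 27 of its 70 UMIs, and a single cell of the library labelled transgenic held 48 of 70. Without cells of at least 2 T or natural killer marker UMIs, which made up 1.72% and 10.1% of the monocyte-like cells, the ratio was 2.67 (2.24 to 3.19). With the left-out barcodes of many genes nearest to this cluster it was 4.50 (3.88 to 5.21), from 333 and 409 UMIs, and within finer cluster 11 it was 5.54 (3.92 to 7.83).

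In macrophage-like cells the size of the Cxcl9 difference depended on which cells and barcodes were counted. The metadata cells held 23 UMIs in 8 of 664 cells and 320 UMIs in 51 of 1106 cells, shares of 1.20% and 4.61% that became 0.540% and 2.73% after thinning with 63 and 72 cells left out. The levels were 10.2 and 86.8 CPM (ratio 8.50, 5.56 to 13.6). With the 340 and 344 barcodes of many genes nearest to this cluster the ratio was 2.71 (2.29 to 3.21), from 184 and 572 UMIs. Those barcodes alone gave 39.8 and 71.1 CPM (ratio 1.79, 1.46 to 2.19). The wild type level was thus 10.2 CPM among the metadata cells and 39.8 CPM among the barcodes of many genes. Without cells of at least 2 T or natural killer marker UMIs the ratio of the metadata cells was 4.19 (2.67 to 6.85), from 23 and 124 UMIs. Without the 5 highest cells of each library it was 32.4 (10.9 to 159), from 3 and 160 UMIs. Those were 5 of the 8 wild type cells with the gene and 5 of the 51 others, so unequal parts were left out.

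In the dendritic-like cells Cxcl9 had 13 UMIs in 3 of 132 cells and 158 UMIs in 19 of 282 cells. The levels were 18.8 CPM (10.0 to 32.1) and 99.0 CPM (84.1 to 116), which gave a ratio of 5.27 (interval 2.99 to 10.1), and 10 of the 13 wild type UMIs were in 1 cell. Without the highest cell of each library the ratio was 15.7 (5.24 to 77.4), from 3 and 109 UMIs. The cell left out was 1 of 3 wild type cells with the gene and 1 of 19 in the other library. With the left-out barcodes of many genes nearest to this cluster the counts were 108 and 820 UMIs and the ratio 4.67 (3.82 to 5.76). In the library labelled transgenic, Ccr7 was in 52.6% of dendritic-like cells with Cxcl9 and 21.3% of those without, and Cd209a in 15.8% and 41.1%. Neutrophil markers also differed between the libraries in these clusters: the 12 markers summed to 526 and 93.6 CPM in cluster 1, 2662 and 220 CPM in cluster 3, and 244 and 16.3 CPM in cluster 8. Their part in the chemokine values was not tested.

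Cells with Cxcl9 carried other interferon gamma targets in larger shares than cells without it. Among monocyte-like cells, Gbp2, a guanylate-binding GTPase, was found in 65.0% and 57.6% of cells with Cxcl9 against 11.3% and 16.3% of the others, at median depths of 5619 and 4937 UMIs against 5715.5 and 5059.5. Cxcl10 was found in 45.0% and 36.4% against 5.16% and 9.16%. The receptor went the other way: Ifngr1 was found in 55.0% and 48.5% of cells with Cxcl9 and in 81.5% and 77.2% of those without. Among macrophage-like cells of the library labelled transgenic, Cxcl10 was found in 25.5% against 9% and Cd274, which encodes PD-L1, in 35.3% against 8.34%, at 4212 against 3020 median UMIs. Of the 8 wild type macrophage-like cells with Cxcl9, 0 held Cxcl10, Gbp2 or Cd274, a count of 0 that allows up to 37.5%.

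More of the Cxcl10 counts lay outside than inside the metadata cells. The metadata cells held 22.7% of 4216 and 30.3% of 3777 Cxcl10 UMIs. Immunoglobulin-rich barcodes held 43.3% and 45.8%, with 1827 and 1729 UMIs in 166 of 1218 (13.6%) and 182 of 1160 (15.7%) barcodes. Among the barcodes whose main heavy chain was IgA, the antibody class of most gut plasma cells, the level was 68.2 CPM (65.1 to 71.4) and 80.3 CPM (76.5 to 84.2). Irf1, the interferon-induced transcription factor gene, was in 65.1% and 58.8% of immunoglobulin-rich barcodes with Cxcl10 and in 39.6% and 34.5% of those without, at 27490.5 and 26887 against 22397.5 and 17575 median UMIs. Cxcl9 in the same barcodes was at 6 and 131 UMIs, in 4 and 21 barcodes. The 5 highest barcodes of the library labelled transgenic held 111 of the 131 UMIs, and the highest held 56. Thinned to 1000 UMIs, the share of immunoglobulin-rich barcodes with Cxcl10 was 3.75% and 4.61%, with 74 and 128 barcodes left out.

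**Figure D3:**
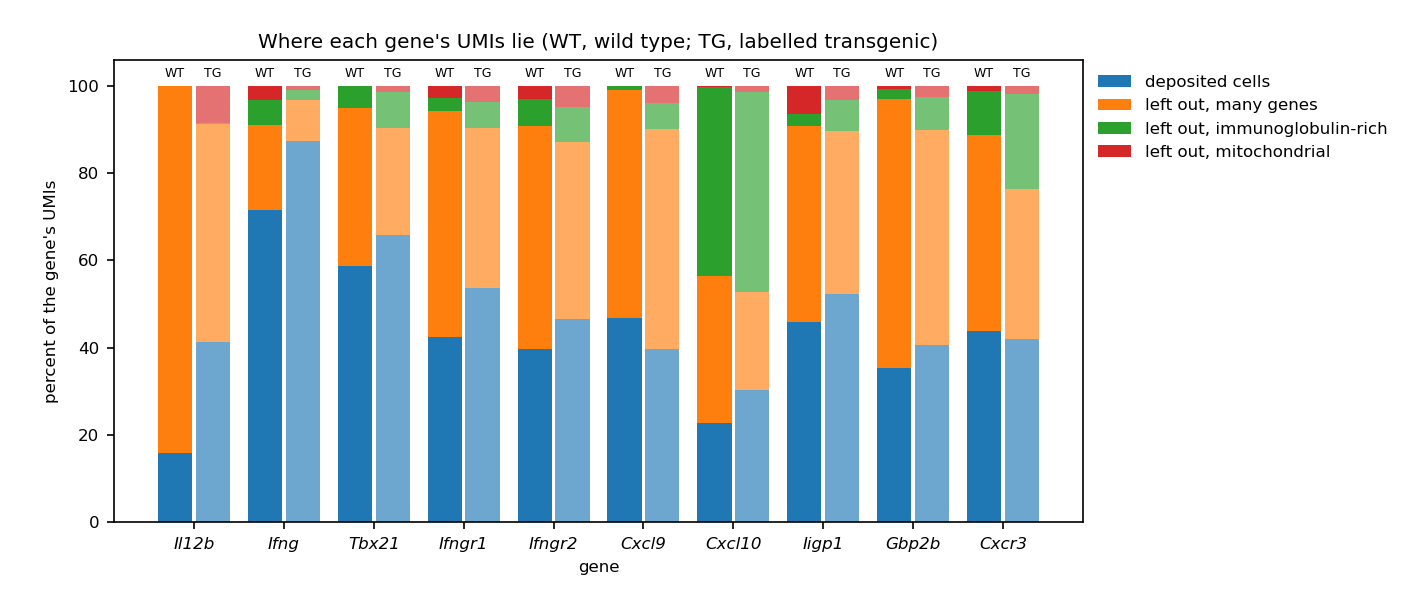
Percent of each gene's UMIs that lay in the cells of the deposited metadata, in immunoglobulin-rich barcodes, in barcodes of many genes and in barcodes of high mitochondrial share, stacked for the wild type library and the library labelled transgenic. Cxcl10 is the gene with the largest immunoglobulin-rich part (43.3% and 45.8%), and Ifng the gene with the largest part in metadata cells (71.5% and 87.5%).

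Among the metadata cells Cxcl10 was highest in the monocyte-like cells, at 117 CPM (107 to 128) and 160 CPM (143 to 178), which gave a ratio of 1.36 (interval 1.19 to 1.57). The finer clusters that hold most of these cells lay on opposite sides of 1. In finer cluster 3 Cxcl10 stood at 101 and 79.9 CPM (ratio 0.794, 0.649 to 0.967), and in finer cluster 11 at 134 and 616 CPM (ratio 4.60, 3.67 to 5.76). Finer cluster 11 had 217 and 51 cells, of which 10 and 14 held the gene. A single wild type cell held 138 of the 177 UMIs there, and single cells of the library labelled transgenic held 51 and 34 of 147. The macrophage-like cells had 206 and 439 UMIs, 91.5 and 119 CPM (ratio 1.30, 1.10 to 1.54). With the nearest barcodes of many genes that ratio was 0.890 (0.810 to 0.979), and without cells of at least 2 T or natural killer marker UMIs 1.02 (0.841 to 1.23). The Cxcl10 ratio of the macrophage-like cells therefore lay on both sides of 1, depending on the barcodes counted.

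Some clusters with little Cxcl10 had ratios further from 1. In the dendritic-like cells there were 0 UMIs in 132 cells, which allows a share of up to 2.27%, and 68 UMIs in 12 of 282 cells. With 3 UMIs in place of the 0 the ratio was 9.82, and its exact lower limit was 7.77. The barcodes of many genes nearest to this cluster held 28 and 92 UMIs, 7.31 and 16 CPM (ratio 2.19, 1.42 to 3.47). In cluster 2 the levels were 52.1 and 31.1 CPM (ratio 0.597, 0.426 to 0.839), which became 0.366 (0.247 to 0.537) without the barcodes that occur in both libraries and 1.09 (0.519 to 2.46) without the 5 highest cells. Finer cluster 6, led by Csf2 and Calca, held 63 and 67 UMIs, and there 11 and 15 cells held Cxcl10. Csf2, a cytokine gene of innate lymphoid and T cells, was in 63.6% and 60% of those cells and 11% and 11.2% of the others, but the cells with Cxcl10 had 4366 and 3966 median UMIs against 1149 and 1205.

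Iigp1, an immunity-related GTPase gene, had its highest level outside the immune clusters. The fibroblast-like cluster 9, which also carries endothelial markers, had 147 CPM (103 to 203) and 169 CPM (125 to 223), from 37 and 49 UMIs in 14 of 103 and 12 of 107 cells, a ratio of 1.15 (0.734 to 1.81). Pecam1, an endothelial gene, was in 71.4% and 25% of cells with Iigp1 and in 20.2% and 15.8% of the others. Cdh5 was in 64.3% and 33.3% against 13.5% and 8.42%. In the library labelled transgenic these were 3 and 4 of 12 cells. The fibroblast gene Col3a1 was in 21.4% and 66.7% of cells with Iigp1 and in 59.6% and 73.7% of the others. The highest cell held 28 of the 49 UMIs of the library labelled transgenic, with 6 of Pecam1. In the macrophage-like cells Iigp1 was in 7 of 664 and 41 of 1106 cells, 1.05% and 3.71%, or 0.583% and 1.60% thinned, against 0.0415% and 0.134% of B cell-like cells. The levels were 4.89 and 19.0 CPM (ratio 3.89, 2.04 to 8.14).

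A single macrophage-like cell of the library labelled transgenic joined 3 of the targets. With 4760 UMIs in all, it held 61 Cxcl9, 73 Cxcl10 and 12 Iigp1 UMIs, the highest count of each gene among the macrophage-like cells of that library. Without the highest cell of each library the Iigp1 ratio in these cells was 5.90 (2.55 to 16.7), from 6 and 58 UMIs, and with the nearest barcodes of many genes it was 6.39 (3.71 to 11.8), from 15 and 110 UMIs.

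Gbp2b was found both in lymphocytes, at levels whose intervals overlapped between the libraries, and in macrophage-like cells. In finer cluster 8 it stood at 30.7 CPM (20.2 to 44.7) and 35.2 CPM (25.1 to 47.9), which gave a ratio of 1.15 (interval 0.686 to 1.94). Most cells with Gbp2b in this cluster carried the gene of the regulatory T cell factor Foxp3, in 10 of 13 (76.9%) and 18 of 28 (64.3%) against 29.3% and 21.8% of the others, at median depths of 3257 and 2826.5 UMIs against 3483 and 2937. Il17a was in 0% and 7.14% against 25.8% and 18.4%, and Ifng in 0 of 13 and 0 of 28 against 3.49% and 7.55%, where a count of 0 allows up to 23.1% and 10.7%. In the macrophage-like cells the gene had 14 UMIs in 12 cells and 95 UMIs in 71 cells, with no more than 4 in any cell, at 6.22 and 25.8 CPM (ratio 4.14, 2.35 to 7.87). The counts were spread over many cells there, and without the 5 highest the ratio was 6.81 (3.15 to 17.5). Those were 5 of 12 and 5 of 71 cells with the gene, so unequal parts were left out. With the nearest barcodes of many genes it was 2.95 (2.28 to 3.85), from 78 and 264 UMIs. Gbp2b, Gbp2 and Iigp1 belong to families of near copies, whose reads the counting may have assigned imprecisely.

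Cxcr3, the receptor for CXCL9 and CXCL10, was highest in cluster 4, at 73.4 CPM (61.3 to 87.2) and 77.2 CPM (67.0 to 88.5), which gave a ratio of 1.05 (interval 0.840 to 1.32). It was found in 87 of 455 (19.1%) and 149 of 741 (20.1%) cells, or 7.17% and 7.55% thinned, against 0.415% and 0.581% of B cell-like cells. Within cluster 4, the gamma-delta gene Trdc was in 9.20% and 12.1% of cells with Cxcr3 and 26.9% and 22.6% of those without. Il17a was in 4.60% and 2.68% against 16% and 9.97%. By level, finer cluster 8 was higher than finer cluster 4, with 90.9 and 127 CPM against 65.1 and 60.2 CPM; the intervals overlap in the wild type library (72.1 to 113 and 50.8 to 82.1) and not in the other (107 to 149 and 51.0 to 70.5).

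Cxcr3 counts also came from cells outside the T and natural killer groups. The plasmacytoid dendritic-like finer cluster 14 had 51.3 CPM (18.8 to 112) and 87.1 CPM (55.2 to 131), in 6 of 22 and 15 of 48 cells, and all of these cells held the plasmacytoid marker Siglech, as did the other cells of the cluster. Cluster 2 had 24.5 and 44.2 CPM (ratio 1.80, 1.20 to 2.78), while finer cluster 4, which takes a larger part of it in the library labelled transgenic, had a ratio of 0.924 (0.693 to 1.24). Immunoglobulin-rich barcodes had 48 UMIs in 35 and 230 UMIs in 142 barcodes, a ratio of 5.81 (4.24 to 8.10). In these barcodes Cd3e was found in 20% and 34.5% of those with Cxcr3 against 4.23% and 10.8% of those without. By main heavy chain, in the library labelled transgenic Cxcr3 was in 17 of 40 IgG barcodes (42.5%, at 41.0 CPM, 28.4 to 57.2) and 124 of 1103 IgA barcodes (11.2%, at 9.21 CPM, 7.96 to 10.6), at median depths of 18734 and 19551 UMIs. In the wild type library it was in 0 of 14 and 34 of 1189 (2.86%), where a count of 0 of 14 allows up to 21.4%. The part of T cell RNA in these counts was not tested.

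**Figure D4:**
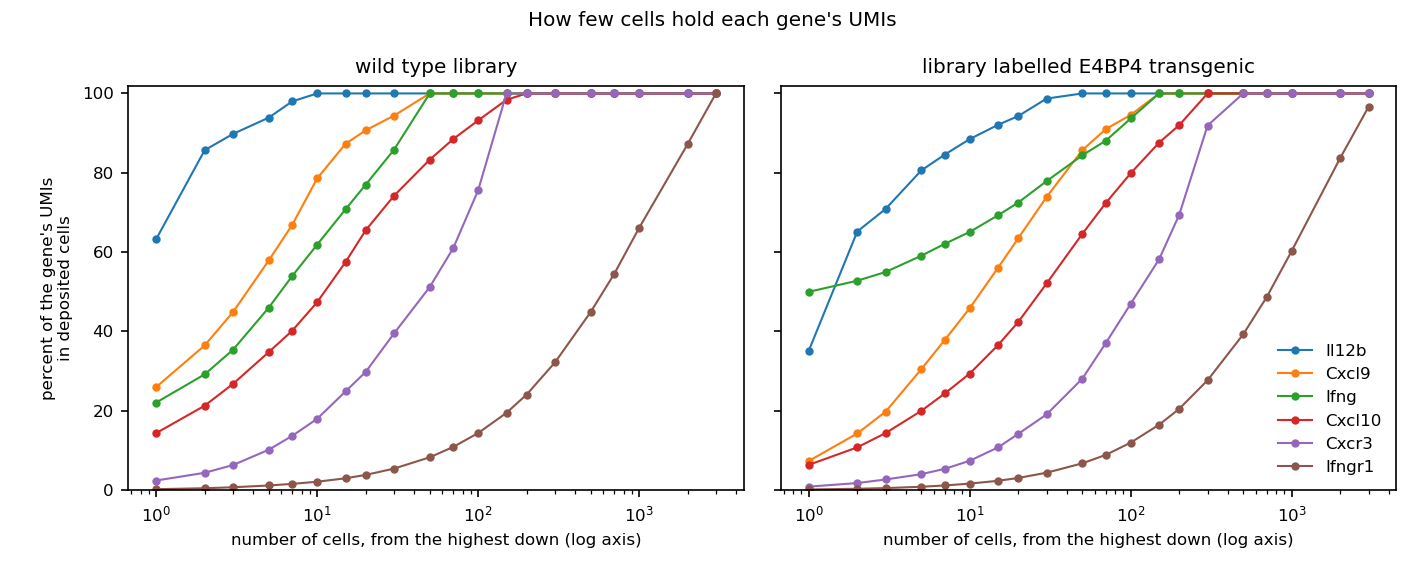
Cumulative percent of each gene's UMIs among the metadata cells against the number of highest cells, ranked from the highest, for 6 of the genes in both libraries (number of cells on a log axis). A single cell gives 50% of the Ifng UMIs of the library labelled transgenic and 63.3% of the Il12b UMIs of the wild type library, whereas the 10 highest cells give 2.14% and 1.66% of the Ifngr1 UMIs.

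The genes differed in how far a few cells carried them. The 5 highest cells held 46.0% and 59.1% of Ifng, 93.9% and 80.6% of Il12b, 57.9% and 30.5% of Cxcl9 and 34.8% and 20% of Cxcl10 UMIs in the metadata cells. For the GTPase genes they held 38.8% and 30.2% of Iigp1 and 38.3% and 11.8% of Gbp2b UMIs. For Cxcr3 they held 10.2% and 4.04%, and for Tbx21 14.9% and 6.35%. For the receptor genes Ifngr1 and Ifngr2 the shares were 1.19% and 0.864%, and 1.38% and 1.77%. The interferon gamma receptor genes thus had the smallest parts in 5 cells, and Il12b the largest, in both libraries. Over all metadata cells the ratios ran from 0.841 (0.781 to 0.905) for Ifngr2 and 1.13 (1.09 to 1.17) for Ifngr1 to 4.89 (3.99 to 6.05) for Ifng. A ratio over all cells also moves with the numbers of cells in each cluster.

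A count of the members past a fixed size was set against all genes. The members, and the lists counted below, were chosen with earlier results of these data known, so the counts are descriptions. A member entered with 20 or more UMIs in the libraries together, and counted as higher or lower if its ratio was at least 1.5-fold, a rule of size and not a test. In the macrophage-like cells 6 of 9 members counted were higher (Ifng, Cxcl9, Iigp1, Gbp2b, Cxcr3 and Tbx21) and 0 lower, where 8.66% of 10213 genes were higher and 8.52% lower. Ifng passed the minimum through 1 library alone, and Tbx21 had 3 and 19 UMIs. Iigp1 (11 and 70 UMIs), Gbp2b (14 and 95) and Cxcr3 had fewer than 20 in the wild type library. They too reached the minimum mainly through the library labelled transgenic, in which they were higher. Without the cells of at least 2 T or natural killer marker UMIs, 4 of 7 were higher, where 6.52% of all genes were higher and 11.1% lower. Cxcr3 and Tbx21 are lymphocyte genes, and their part from lymphocyte RNA was not tested. In the monocyte-like cells 1 of 4 was higher (Cxcl9) and 0 lower (all genes 14.9% and 9.05%), and in the dendritic-like cells 4 of 6 (Il12b, Cxcl9, Cxcl10 and Cxcr3) and 0 (11.5% and 11.4%). Cluster 4 had 3 of 8 higher (Ifng, Cxcl10 and Iigp1) and 0 lower (8.22% and 8.27%), and cluster 2 had 4 of 8 higher (Ifng, Tbx21, Gbp2b and Cxcr3) and 1 lower (Cxcl10; 10.7% and 7.31%). Iigp1 in cluster 4, with 4 and 16 UMIs, and Gbp2b in cluster 2, with 4 and 19 UMIs, reached the minimum mainly through the library in which they were higher, and the intervals of both ratios include 1. In the dendritic-like cells Cxcl10 and Il12b passed through the library labelled transgenic alone. Cxcl9 and Cxcr3 in those cells, and Ifng and Tbx21 in cluster 2, had fewer than 20 UMIs in the wild type library. They also passed mainly through the library in which they were higher. Under median-of-ratios scaling the shares of all genes became 11.3% higher and 12.1% lower in the monocyte-like cells and 14.6% and 8.29% in the dendritic-like cells.

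The same count was made in finer clusters. Finer cluster 4 had 1 of 6 members higher and 0 lower (all genes 8.96% and 7.55%), finer cluster 6 had 2 and 1 of 6 (9.95% and 13.2%), and finer cluster 8 had 4 and 1 of 8 (12.6% and 8.73%). Finer cluster 10, T cell-like, had 0 and 0 of 2 (14.5% and 8.35%), and finer cluster 14 had 1 and 0 of 2 (12.8% and 15.3%). Of the finer clusters that hold most of cluster 3, finer cluster 3 had 1 and 0 of 4, and finer cluster 11 had 2 and 0 of 4, where 11.9% and 8.84%, and 23.6% and 19.0%, of all genes were higher and lower.

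A wider list held 37 textbook interferon gamma targets, of which 35 were found in the count tables and 4 are members described above. In the macrophage-like cells 11 of the 29 counted were at least 1.5-fold higher and 0 lower, where 8.66% and 8.52% of all genes were, with a median log2 ratio of 0.36 against -0.04 over all genes. Beside the members these were Gbp2, Gbp4, Gbp6, Igtp, Tgtp2, Cd274, Serpina3g and Il18bp. Of these, Tgtp2 had 6 and 15 UMIs (ratio 1.53, 0.560 to 4.80) and Gbp6 had 7 and 28 (ratio 2.44, 1.04 to 6.62), so both reached the minimum mainly through the library labelled transgenic. Serpina3g, a protease inhibitor gene, stood at 6.66 and 20.3 CPM (ratio 3.05, 1.74 to 5.73), and Igtp at 12.9 and 23.9 CPM (ratio 1.85, 1.21 to 2.93). Serpina3g had 15 and 75 UMIs, so it too reached the minimum mainly through the library labelled transgenic. Socs1, a feedback inhibitor, had 5.33 and 12.7 CPM, from 12 and 47 UMIs. Of 10 type I interferon genes counted, 1 was higher and 1 lower, with a median of -0.16. Lymphocyte effector genes were higher in the same cells in 9 of 12, with a median of 1.22: Gzma stood at 8.88 and 137 CPM (ratio 15.4, 9.86 to 25.4), and Cd8a at 6.22 and 36.9 CPM. The part of lymphocyte RNA in the target genes was not tested.

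In the monocyte-like cells 15 of 27 targets counted were higher and 1 lower (all genes 14.9% and 9.05%), with a median log2 ratio of 0.63 against 0.08 over all genes. Ciita, the regulator of MHC class II genes, stood at 35.8 and 89.6 CPM (ratio 2.50, 2.02 to 3.11). Ly6a stood at 103 and 246 CPM (ratio 2.39, 2.11 to 2.72), and Gbp2 at 34.9 and 86.8 CPM (ratio 2.49, 2.00 to 3.10). The lower gene was Nos2, the inducible nitric oxide synthase gene, at 310 and 36.5 CPM (ratio 0.118, 0.0926 to 0.148). Nos2 is a leading gene of finer cluster 11, which gave 24.8% and 11.4% of the monocyte-like cells, and within that finer cluster it was also lower, at 1086 and 331 CPM (ratio 0.305, 0.240 to 0.382). Of the 10 type I interferon genes 5 were higher, 5 within 1.5-fold and 0 lower, with a median of 0.63, and within finer cluster 3 alone 4 were higher and 0 lower. Within finer cluster 3 alone the target count was 8 higher and 2 lower of 27 with a median of 0.42, against 11.9% and 8.84% of all genes and a median of 0.02. Within finer cluster 11 it was 15 higher and 1 lower (Nos2) of 18 with a median of 1.58, against 23.6% and 19.0% of all genes. Of the type I interferon genes counted there, 4 of 4 were higher, with a median of 1.62 against 0.11 over all genes. The dendritic markers summed to 122 and 618 CPM in the monocyte-like cells, and their part was not tested.

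The dendritic-like cells and the lymphocytes of cluster 4 had list medians closer to those of all genes. In the dendritic-like cells 4 of 22 targets were higher and 2 lower, beside 11.5% and 11.4% of all genes, with a median log2 ratio of -0.05, equal to that of all genes. Cxcl9 and Cxcl10 were higher there, while Gbp2 stood at 27.5 and 28.8 CPM, and Isg15, a type I interferon gene, at 220 and 110 CPM (ratio 0.502, 0.402 to 0.628). In cluster 4 there were 3 of 25 higher and 0 lower (all genes 8.22% and 8.27%), with a median of 0.11 against -0.02. Of 15 lymphocyte effector genes in cluster 4, 7 were higher and 0 lower, with a median of 0.45. Ccl4 stood at 396 and 1311 CPM (ratio 3.31, 3.05 to 3.60), and Runx3, a factor that supports Ifng expression, at 133 and 211 CPM (ratio 1.59, 1.36 to 1.85). Gzma and Xcl1 define this cluster and are not given as results.

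**Figure D5:**
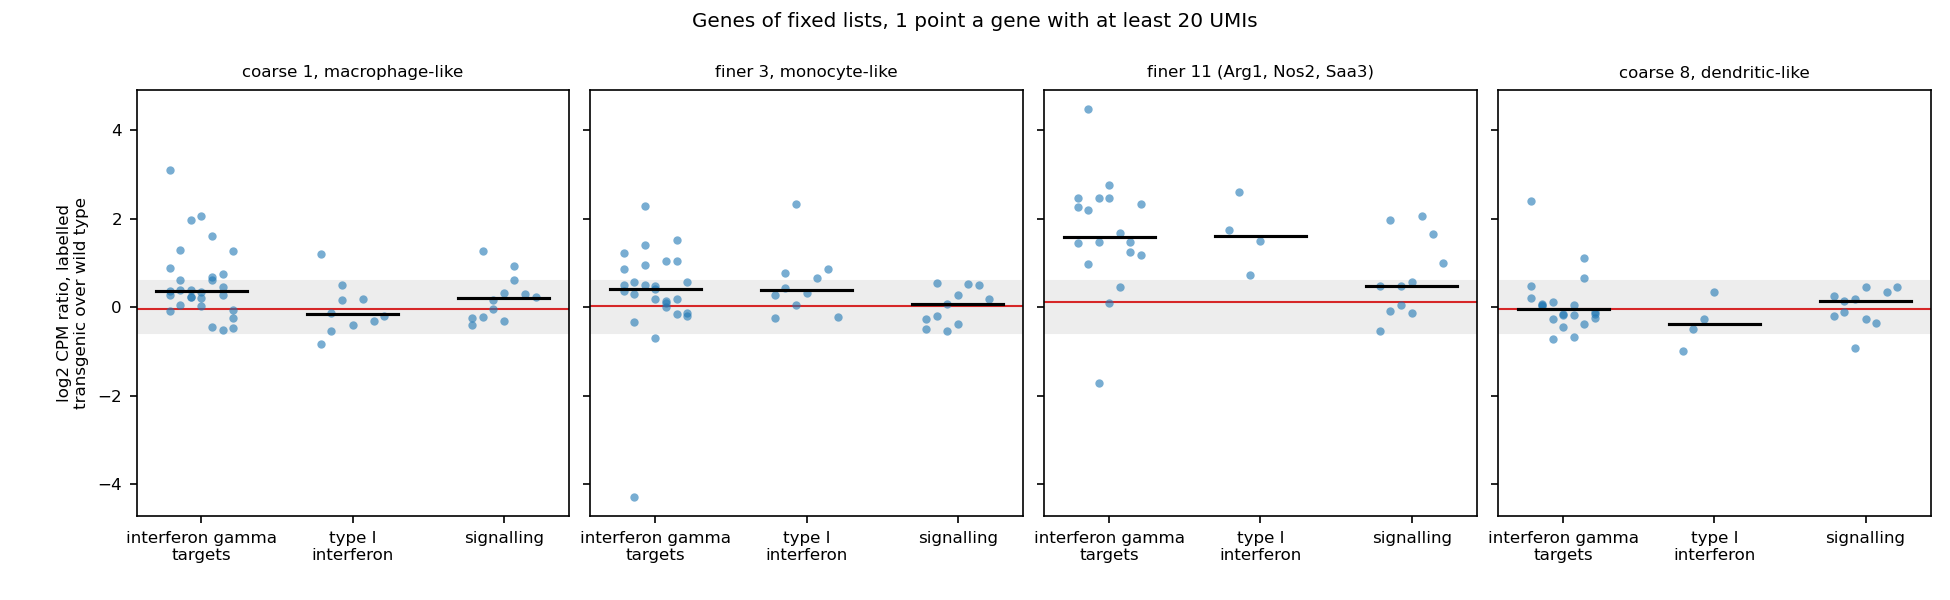
Log2 ratio of CPM, library labelled transgenic over wild type, for the genes of the interferon gamma target, type I interferon and signalling lists in coarse cluster 1, finer clusters 3 and 11 and coarse cluster 8; each point is a gene with counts in each library and 20 or more in all. Black bars are list medians, red lines the median of all genes, and the grey band is within 1.5-fold; the target median is 1.58 in finer cluster 11 and -0.05 in coarse cluster 8.

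The genes most like each member in level over the 28 cluster points were read from 11243 genes. Ifng was closest to Tcrg-C2 (Pearson 0.89), Klrc1 (0.88) and Cd3e (0.88), and Tbx21 to Klrc1 (0.88), Tcrg-V1 (0.87) and Gpr55 (0.87). Cxcl9 was closest to the interferon-inducible genes Ifi211 (0.86) and Ifi205 (0.77), and its correlation with Cxcl10 was 0.69. Cxcl10 was closest to Tbkbp1 (0.89) and Cxcr3 to Dkkl1 (0.87) and Tnfrsf18 (0.86). Il12b was closest to the mast cell protease gene Cma2 (0.91) and to Xcr1 (0.91). Both Cma2 and Il12b are leading genes of finer cluster 9, which carries dendritic and mast cell markers. The points of a library share its depth, so these are descriptions and no p is given.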

How the data were processed

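The authors deposited whole-number UMI counts per gene and barcode for both libraries, and metadata that give each cell's coarse and finer cluster (Seurat resolutions 0.4 and 0.5) and a mitochondrial percent, per the file headers. Cell Ranger 5.0.0 and Seurat 4.0 are named in the submitters' processing notes. Counts of the cells of a cluster were summed per library and divided by their total to give CPM. Intervals are exact (Clopper-Pearson, Poisson or conditional binomial, 95%). The share that a count of 0 is said to allow is not exact but approximate, as 3 divided by the number of cells or barcodes. They cover counting error only, since there is 1 library per genotype, and no test between genotypes was made. The replicate structure within a library is not given.

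Clusters were named from marker lists: at least 3 markers detected in 10% of cells and 2-fold higher, 1 of them among the 10 leading genes, no haemoglobin gene leading and no second lymphoid type. Left-out barcodes were assigned to the nearest cluster by a multinomial profile, which placed 84.2% of 6695 held-out cells in their own cluster. Doublets were not removed in the values given. Scrublet's own threshold called 0 and 2 barcodes and so did not work, and the 8% highest scores were left out as an alternative. The named genes were the 10 members and the listed pathway genes at least 1.5-fold apart with at least 20 UMIs. Members and lists were chosen with earlier results of these data known. Calculations used Python 3.11.15, numpy 2.4.6, scipy 1.17.1, pandas 2.3.3, matplotlib 3.10.9 and scanpy 1.11.5, and the interval calculation was tested on simulated data.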

Additional observations from a re-analysis of the deposited data

Results flagged for a closer look

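Several ratios of 1 gene lay on opposite sides of 1 in different clusters. For Cxcl10 the ratio of the library labelled transgenic over the wild type library was 2.22 in the B cell-like cluster 0 (11 and 21 UMIs). It was 1.81 in cluster 4 (31 and 85 UMIs) and 3.75 in cluster 5 (14 and 71 UMIs). In the dendritic-like cluster 8 (0 and 68 UMIs) it was 9.82 with 3 UMIs in place of the 0. In the fibroblast-like cluster 9 it was 3.90 (4 and 18 UMIs). It was 0.597 in cluster 2 (66 and 81 UMIs) and 0.399 in the neutrophil-like cluster 6 (96 and 5 UMIs, 52 of the 96 in 1 cell). For Il12b the ratio was 72.8 in cluster 8 (1 and 168 UMIs) and 0.572 in cluster 5 (44 and 34 UMIs). With 1 library per genotype the differences between clusters were not tested.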

How the results depend on the processing

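No paired analysis was possible because each genotype has 1 library and the labels carry no replicate numbers. Of the ratios recomputed under alternatives, 344 stayed within the interval of the value they started from and 63 moved beyond it. Another 5, which had started at least 1.5-fold from 1, crossed to its other side. Ratios that started within 1.5-fold and crossed 1 are counted among the 344 and the 63. Of the counts of genes, 151 stayed within 1.5 times and 25 moved. The cause was not tested for any of them. The alternatives that add left-out barcodes or leave out lymphocyte-marked cells, the 1 highest cell or shared barcodes were chosen after seeing the data. An alternative within a finer cluster took all its cells, also those that lie in other coarse clusters. Finer cluster 4, for example, had 35 and 227 cells in cluster 2 and 253 and 489 in cluster 4.

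Those 5 included Cxcl10 in cluster 2, at 9.28 within finer cluster 8 and 1.09 without the 5 highest cells. The others, all within finer cluster 4, were Cxcr3 and Tbx21 in cluster 2, at 0.924 and 0.955, and Cxcl10 in cluster 4, at 0.720. Ratios that started within 1.5-fold crossed 1 as well, for example Cxcl10 in clusters 1 and 3, at the 0.890 and 0.794 given below. With left-out barcodes of many genes, Cxcl9 was 2.71 in cluster 1 and 4.50 in cluster 3, and Cxcl10 in cluster 1 was 0.890. Without cells of T and natural killer marker UMIs, Cxcl9 in cluster 1 was 4.19 and Cxcl10 was 1.02, which was also its value without cells of CD3 or T cell receptor UMIs. Leaving out equal numbers of cells can remove a larger part of the counts from the library with fewer cells holding the gene. Without the 5 highest cells, Cxcl9 was 32.4 in cluster 1 and 3.20 in cluster 3. Cxcl10 in cluster 3 was then 1.70 and Ifng in cluster 4 was 1.98. Without the 1 highest cell, Cxcl9 was 3.25 in cluster 3 and 15.7 in cluster 8, Cxcl10 in cluster 3 was 1.58 and Ifng in cluster 4 was 1.68. As a mean over cells, Ifng in cluster 4 was 2.38. Within finer clusters, Cxcl9 in cluster 3 was 5.54 (finer 11), Cxcl10 was 0.794 (finer 3) and 4.60 (finer 11), and Ifng in cluster 4 was 2.37 (finer 4) and 1.71 (finer 8).

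The shares in brackets are those of all genes past the same size under the same alternative. For cluster 2, members at least 1.5-fold higher numbered 1 (8.96%), 2 (9.95%) and 0 (14.5%) in all cells of finer clusters 4, 6 and 10. Those lower numbered 0 in all cells of finer clusters 4 (7.55%) and 10 (8.35%). They also numbered 0 in cluster 2 without the 5 highest cells (3.72%) and at a 2-fold size (2.13%). In cluster 3 the higher members numbered 3 with left-out barcodes (12.8%), 2 within finer cluster 11 (23.6%), 2 without the 5 highest cells (10.2%), 2 without the 1 highest cell (13.6%), 3 at a minimum of 10 UMIs (17.3%) and 5 with no minimum (24.9%), and 1 was lower with no minimum (19.7%). In cluster 4 there was 1 higher within finer cluster 4 (8.96%), and 1 lower within finer cluster 8 (8.73%), at a minimum of 10 (11%) and with no minimum (21.2%). In cluster 8 there was 1 higher within finer cluster 14 (12.8%), 2 without the 5 highest cells (25%) and 7 with no minimum (26.5%). Target genes higher numbered 6 in cluster 1 and 9 in cluster 3 at a 2-fold size, where 3.69% and 5.14% of all genes were higher, and those lower 1 in cluster 1 at a minimum of 10 (10.5%) and 2 in cluster 3 under median-of-ratios scaling (12.1%). That scaling divided all ratios by 0.960, 1.08 and 0.939 in clusters 1, 3 and 8. The ratios thus rose in clusters 1 and 8 and fell in cluster 3.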
